A study of Mus musculus with 8 samples.

Results

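The genes described here act in thymic egress and lymphoid homing of regulatory T (Treg) cells. They are the sphingosine-1-phosphate (S1P) receptors S1pr1 and S1pr4, the Krüppel-like factors Klf2 and Klf3, the Ly6 surface proteins Ly6c1, Ly6c2 and Ly6a, and the integrin chains Itga4 and Itgb7. These 9 genes were chosen by name for their known roles, and each was read from the probe set that carried its symbol alone and had the highest mean over all 8 arrays. Of the 9 genes, 8 were measured among the 22180 genes so obtained. Ly6a had no probe set with a single symbol in the annotation and was not analysed here.

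The arrays were hybridised with RNA of Foxp3+CD4+CD25+ Treg cells from the thymus and the spleen of C57Bl/6J mice. The mice were between 7 and 12 weeks of age. The control mice (HET) were miR-181a/b-1+/-, so they carried 1 deleted allele, and the test mice (KO) were miR-181a/b-1-/-. All mice carried a GFP reporter expressed from the Foxp3 locus, and no group was wild type for the miRNA cluster. The cells were sorted by this reporter, to a stated purity of 98% or more. The study's methods, however, list human CD2 as the Foxp3 reporter and GFP as a reporter of Rag1. Each of the 4 combinations of tissue and genotype held 2 arrays, and 1 pool of mice gave both the thymus and the spleen array of a number. By the labels, the HET pools held 3 females and 1 male and 4 females and 1 male, and each of the KO pools 2 females and 1 male. An array thus averages several mice, and the sorted Treg cells of the thymus can include newly formed cells and cells that have returned from the periphery.

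The deleted cluster encodes miR-181a and miR-181b. Their mature 5′ arms are shown because the genotypes differ in them. They lie on chromosome 1 of GRCm38.p6 at chr1:137966468-137966490 and chr1:137966650-137966673 on the plus strand, in the RefSeq records, and capitals mark the seed, bases 2 to 8, which both share.
miR-181a-5p: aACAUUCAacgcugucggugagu
miR-181b-5p: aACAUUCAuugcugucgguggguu

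T cells leave the thymus along a gradient of S1P, which is low in the tissue and high in blood and lymph, and which they sense mainly through S1pr1. Klf2 is a transcription factor that promotes S1pr1, and the activation antigen CD69 removes S1pr1 protein from the cell surface. Once in the circulation, lymphocytes enter tissues through integrins, of which the pair of α4 (Itga4) and β7 (Itgb7) binds MAdCAM-1 on vessels of the gut. Ly6C and Sca-1 (Ly6a) are glycolipid-anchored proteins of the Ly6 family that mature and memory-type T cells carry on their surface.

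Values are log2 intensities, so a difference of 1 is a change by a factor of 2. Array medians lay between 4.58 and 4.70. A level was taken as above background when it exceeded 4.63, the 95th percentile of 1105 olfactory receptor genes, and a gene under that level in a group has only a bound there. Treg and T cell markers (7 of 8 measured, Foxp3, Il2ra and Ctla4 among them) were above background in every group, with array means of 10.6 to 10.9, and 0 of the 7 passed the test between the tissues. Of the double-positive thymocyte markers, 7 of 9 were measured, with array means of 5.01 to 5.34 in thymus and 4.58 to 4.72 in spleen. Cd8a and Dntt passed as lower in spleen, where both were under background. In thymus, Cd8a read 4.39 and 4.57 in HET and 6.22 and 5.27 in KO. Dntt read 5.20 and 4.84 in thymus HET and 4.62 and 4.59 in thymus KO. Cd8a was thus above background only in thymus KO and Dntt only in thymus HET. Between the genotypes in thymus 0 of the 7 passed. Cd8b1, Ptcra and Cd1d1 were above background on all 8 arrays, and Rag2 and Arpp21 were under it in all groups. The part of these markers in the values below was not tested. In the HET arrays Xist, the RNA of the inactive X chromosome in females, lay between 3.58 and 4.40, under background although the labels name females in both HET pools, and in the KO arrays it lay between 8.80 and 9.40. The Y-linked gene Kdm5d was detected on all 8 arrays, at 7.18 to 7.77 in HET and 7.08 to 7.23 in KO. The sex makeup of the pools and the genotype cannot be told apart, and this holds for each KO against HET value below.

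The first question was whether the egress and homing genes differed between thymic and splenic Treg cells. They fell into 2 kinds. Klf3, Ly6c1, Ly6c2, Itga4 and Itgb7 were higher on all 4 spleen arrays than on all 4 thymus arrays, whereas S1pr1, S1pr4 and Klf2 overlapped between the tissues. All 4 spleen arrays exceeded all 4 thymus arrays in 8.29% of all genes. Averaged over the genotypes, Klf3, Ly6c1, Ly6c2 and Itgb7 passed the limma test at an adjusted p of 0.05 (Benjamini-Hochberg over all 22180 genes), 4 of 8 genes, all higher in spleen, where 5.43% of all genes passed in either direction and 3.17% passed as higher in spleen. Of these, Ly6c1 was under the background level on all 8 arrays and Ly6c2 on the thymus arrays. The probes of Ly6c1 and Ly6c2 could also bind each other's transcripts. In all, 703 genes were higher and 501 lower in spleen, against 472 higher and 533 lower after quantile normalization. After quantile normalization the averaged differences of S1pr4 and Klf2 were -0.03 and -0.04. Without the genes under the median level, 1131 genes were higher and 542 lower in spleen. The median difference of the 8 genes was 0.36, beside -0.02 over all genes, which are not matched to them in level. The genes were picked with earlier results of these arrays known, so these shares describe the genes and are no test of them as a group.

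**Figure D1:**
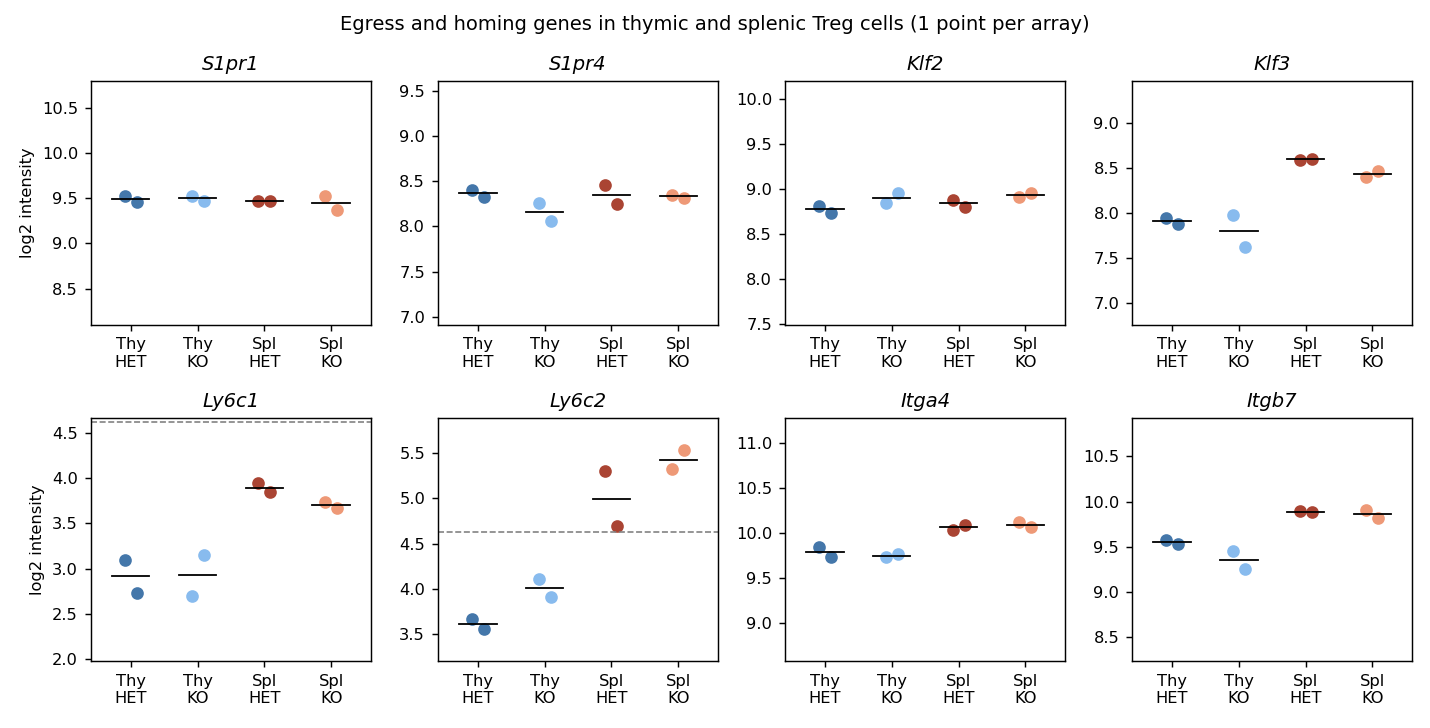
Log2 intensity of the 8 measured genes on each array. Each point is 1 array, the black line is the mean of the 2 arrays of a group, the y axes all span the same log2 range, and the dashed line is the background level of 4.63. Points of thymus (Thy, blue) and spleen (Spl, red) overlap for S1pr1, S1pr4 and Klf2 and do not overlap for the other 5 genes.

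S1pr1, the receptor that guides T cells out of the thymus, read 9.53 and 9.46 in thymus HET, 9.53 and 9.47 in thymus KO, 9.47 and 9.47 in spleen HET, and 9.52 and 9.37 in spleen KO. The tissues overlapped, and all 8 arrays lay within the range of 9.37 to 9.53. The averaged difference between spleen and thymus was -0.04 (95% confidence interval -0.23 to 0.15, adjusted p = 0.837). Within the 4 pools of mice, spleen minus thymus ran from -0.10 to 0.01 and was above 0 in 1 of 4 pools. The interval thus leaves room for a level in spleen that is lower by up to 0.23 or higher by up to 0.15.

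S1pr4, an S1P receptor of lymphoid and myeloid cells, read 8.41 and 8.33 in thymus HET, 8.26 and 8.06 in thymus KO, 8.46 and 8.25 in spleen HET, and 8.35 and 8.32 in spleen KO. The lowest reading belonged to thymus KO and the highest to spleen HET, and the tissues overlapped. The averaged difference was 0.08 (-0.13 to 0.28, adjusted p = 0.680), and it was above 0 in 3 of 4 pools.

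Of 17 further genes of the S1P axis and of retention in the thymus, 16 were measured and 0 passed the averaged test between tissues in either direction (5.43% of all genes passed), with a median difference of 0.02. Arrb1, an arrestin that uncouples and internalises receptors such as those for S1P, differed by 0.24 (0.05 to 0.43, adjusted p = 0.138). Sgpl1, the lyase that degrades S1P and so keeps it low in lymphoid tissue, differed by 0.34 (adjusted p = 0.203). Cd69 read 8.77 to 9.09 on the thymus arrays and 8.90 to 9.20 on the spleen arrays, with a difference of 0.14 (-0.08 to 0.37, adjusted p = 0.473). The transcript of the antagonist of S1pr1 thus also overlapped between the tissues.

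Klf2, the transcription factor upstream of S1pr1, read 8.82 and 8.74 in thymus HET, 8.84 and 8.95 in thymus KO, 8.88 and 8.81 in spleen HET, and 8.91 and 8.96 in spleen KO. The tissues overlapped, and the averaged difference was 0.05 (-0.14 to 0.24, adjusted p = 0.779). Within the 4 pools, spleen minus thymus ran from 0.004 to 0.07 and was above 0 in 4 of 4. After quantile normalization the averaged difference was -0.04. Foxo1, a transcription factor that activates Klf2 in T cells, differed by 0.19 (-0.01 to 0.38, adjusted p = 0.253).

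Klf3, a KLF family member known mainly as a repressor that binds CACCC elements, behaved otherwise. It read 7.94 and 7.88 in thymus HET, 7.97 and 7.62 in thymus KO, 8.58 and 8.60 in spleen HET, and 8.40 and 8.47 in spleen KO. Each spleen array exceeded each thymus array, and the lowest reading, 7.62, was the second thymus KO array. The averaged difference of 0.66 (0.44 to 0.87) corresponded to a 1.58-fold higher level in spleen (adjusted p = 0.00258). Within HET the difference was 0.68 (adjusted p = 0.0410) and within KO it was 0.64 (adjusted p = 0.0447). The averaged call remained under each of the 17 alternatives run, with adjusted p up to 0.0182, with each array left out in turn among them. The call within HET was lost without any 1 array of HET or of spleen KO, with adjusted p up to 0.294, and the call within KO without any 1 array but the first of thymus KO, with adjusted p up to 0.249.

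Of the 15 other KLF genes, all measured, Klf6 passed the averaged test and was higher in spleen, 1 of 15 (5.43% of all genes passed). Klf6, an early-response factor, read 7.77 to 8.11 on the thymus arrays and 8.44 to 8.62 on the spleen arrays, with a difference of 0.65 (0.44 to 0.86, adjusted p = 0.00226). Klf10, which is induced by TGF-β, read 6.53 to 6.80 in thymus and 5.95 to 6.48 in spleen, with a difference of -0.35 (adjusted p = 0.107). The median over the KLF list was -0.01.

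The Ly6C genes were read at the dim end of the arrays. Ly6c2 read 3.66 and 3.55 in thymus HET, 4.11 and 3.91 in thymus KO, 5.30 and 4.69 in spleen HET, and 5.33 and 5.53 in spleen KO. All 4 thymus arrays were under the background level and all 4 spleen arrays were above it. The fitted difference of the averaged contrast was 1.40 (1.12 to 1.69, adjusted p = 9.56e-05). Because thymus has only a bound, the level in spleen was at least 1.50-fold higher, taking the mean of the spleen arrays against the background level. In HET the bound was at least 1.29-fold and in KO at least 1.74-fold. The bounds were not tested. The tests were of the fitted differences, 1.39 in HET (adjusted p = 0.00349) and 1.42 in KO (adjusted p = 0.00255). The 2 spleen HET arrays differed from each other by 0.61, beside a median gap of 0.11 over all genes in that group.

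Ly6c1 read 3.10 and 2.73 in thymus HET, 2.70 and 3.16 in thymus KO, 3.95 and 3.85 in spleen HET, and 3.74 and 3.67 in spleen KO. The spleen arrays were all above the thymus arrays (adjusted p = 0.00142 for the averaged contrast, 0.0171 in HET and 0.0447 in KO), but all 8 arrays were under the background level, so no fold is given. The call in HET was lost without the second thymus HET array or either spleen HET array (adjusted p up to 0.155), and that in KO without the first thymus KO array or any spleen array (adjusted p up to 0.217). Ly6c1 and Ly6c2 are near-identical neighbours on chromosome 15, and probes for 1 of them could bind transcripts of the other. Their readings are therefore uncertain as to which of the genes they reflect. The likeness extends to their promoters. Of the RefSeq windows of 250 bases before and 50 bases from a start site (GRCm38.p6, minus strand), the pair below, chr15:75048788-75049087 for Ly6c1 and chr15:75111922-75112221 for Ly6c2, held 214 identical bases in 340 alignment columns, gaps included, the highest share of the 4 possible pairs on that measure. Over the aligned bases alone the pair was 82.3% identical, and 2 other pairs were more alike. Capitals mark CACCC, or GGGTG for the other strand, the core of the motif that KLF proteins bind.
Ly6c1: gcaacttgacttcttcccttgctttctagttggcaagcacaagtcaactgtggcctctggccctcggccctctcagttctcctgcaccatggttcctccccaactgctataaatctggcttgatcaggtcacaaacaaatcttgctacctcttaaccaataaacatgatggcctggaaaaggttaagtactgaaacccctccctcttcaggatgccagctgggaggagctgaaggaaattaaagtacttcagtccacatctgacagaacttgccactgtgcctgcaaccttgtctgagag
Ly6c2: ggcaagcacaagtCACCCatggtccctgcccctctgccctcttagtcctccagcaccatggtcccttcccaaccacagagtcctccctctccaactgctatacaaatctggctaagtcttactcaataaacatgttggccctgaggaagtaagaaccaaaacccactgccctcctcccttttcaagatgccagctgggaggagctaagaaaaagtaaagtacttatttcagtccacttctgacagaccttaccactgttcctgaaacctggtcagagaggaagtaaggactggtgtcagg

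Myeloid cells also carry Ly6C. Of the 9 myeloid markers 8 were measured, with array means between 4.05 and 4.26 in all groups, and 0 passed between the tissues. Itgam, Ly6g, S100a8 and S100a9 were under the background level in all groups. Cd68 (5.47 to 5.97) and Csf1r (4.76 to 5.42) were above it on all 8 arrays, and Fcgr3 read 4.52 to 4.97. Lyz2 read 4.03 to 4.39 in thymus and 4.27 to 4.70 in spleen, above background only on the first spleen HET array. Endothelial markers, all 6 measured, had array means of 4.84 to 5.01, and 0 passed. Cdh5, Tek and Emcn were under background, whereas Pecam1, which T cells also express, read 8.90 to 9.04 in thymus and 9.20 to 9.44 in spleen (0.32, adjusted p = 0.0540) and Egfl7 read 5.26 to 5.88. Of 6 plasma cell markers, all measured, 1 passed the averaged test as higher in spleen. This was Jchain, the joining chain of secreted antibodies, which was above background only in spleen HET, at 6.22 and 5.39 (averaged adjusted p = 0.0115), and which read 3.58 and 4.44 in spleen KO (KO against HET in spleen, adjusted p = 0.405). Of 7 markers of CD8 and innate-like lymphocytes, all measured, 2 passed. Nkg7, a protein of cytotoxic granules, read 7.99 to 8.58 in thymus and 7.48 to 7.65 in spleen (-0.73, adjusted p = 0.00527). The granzyme Gzmb was under background in thymus and read 4.46 to 5.03 in spleen (adjusted p = 0.0408). Its second spleen HET array (4.59) and second spleen KO array (4.46) were also under background. B cell markers, 5 of 6 measured, had array means of 4.39 to 4.65, and 0 passed. Cd79b was above background on all 8 arrays, at 5.61 to 6.17 in thymus and 6.17 to 6.52 in spleen. Ms4a1, Pax5 and Blk were under background on all 8 arrays, and Cd79a was above it only on the first thymus HET array. The part of these cell types in the values of Ly6c1 and Ly6c2 was not tested. Of the 21 other Ly6 family genes 19 were measured, and 0 passed the averaged test between the tissues (5.43% of all genes passed). Ly6e, which thymocytes and T cells express widely, read 11.76 to 12.04 in thymus and 12.14 to 12.23 in spleen, with a difference of 0.32 (0.12 to 0.52, adjusted p = 0.0657). Ly6d, a marker of early lymphoid cells, differed by -0.33 (adjusted p = 0.117).

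Of the integrin chains of the gut-homing pair, Itgb7 passed the averaged test as higher in spleen and Itga4 did not pass. Itgb7 read 9.57 and 9.53 in thymus HET, 9.46 and 9.25 in thymus KO, 9.90 and 9.88 in spleen HET, and 9.90 and 9.82 in spleen KO. The tissues did not overlap, and the 4 spleen arrays lay between 9.82 and 9.90. The averaged difference was 0.42 (0.23 to 0.62), a 1.34-fold higher level (adjusted p = 0.0188). The gene did not pass within HET (0.34, adjusted p = 0.303) or KO (0.51, adjusted p = 0.0718). The averaged call was lost when any of 6 of the 8 arrays was left out, all but the first array of thymus HET and of thymus KO, with adjusted p between 0.0562 and 0.0857.

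Itga4 read 9.85 and 9.74 in thymus HET, 9.73 and 9.76 in thymus KO, 10.04 and 10.09 in spleen HET, and 10.13 and 10.06 in spleen KO. The tissues did not overlap, and the difference was above 0 in 4 of 4 pools, between 0.18 and 0.39. The averaged difference of 0.31 (0.12 to 0.50) missed the threshold (adjusted p = 0.0599). It passed with the pool of mice as a random block (adjusted p = 0.0477) and without the genes under the median level (0.0284). It also passed with a trended, robust spread (0.0106), but under none of the other alternatives run. Over all 17 alternatives the difference ran from 0.22 to 0.34. A further Itga4 probe set carried a second gene symbol and was not used.

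**Figure D2:**
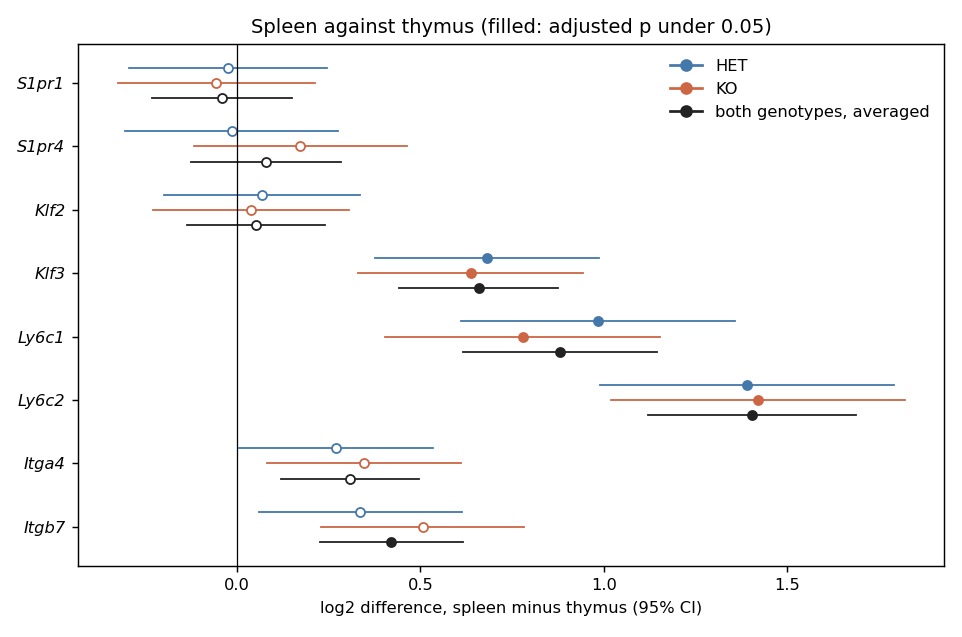
Spleen minus thymus of the 8 genes on the log2 scale, within HET, within KO and averaged over the genotypes. Points are limma estimates, lines 95% confidence intervals, and filled points passed at an adjusted p of 0.05. Averaged estimates ran from -0.04 for S1pr1 to 1.40 for Ly6c2; for Ly6c1 both tissues, and for Ly6c2 the thymus, were under background.

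Within a genotype, 3 of the 8 genes passed in HET, where 1.2% of all genes passed, and 3 passed in KO, where 1.72% did. They were Klf3, Ly6c1 and Ly6c2 in both. The median of the 8 genes was 0.30 in HET and 0.43 in KO, and -0.01 over all genes in each, again not matched for level.

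Among 24 further integrin subunits 23 were measured, and 4 passed the averaged test (5.43% of all genes passed), Itga6 and Itgb3 as higher and Itgae and Itgb8 as lower in spleen. Itga6, the α6 chain of laminin receptors, read 8.67 to 8.85 in thymus and 9.47 to 9.53 in spleen (difference 0.72, adjusted p = 0.000641). Itgae, the αE chain that pairs with β7 and binds E-cadherin on epithelia, read 7.89 to 8.40 in thymus and 7.51 to 7.69 in spleen (-0.57, adjusted p = 0.00596). Itgae, a partner chain of β7, was thus lower on each spleen array than on each thymus array. Itgb8, a chain of the αvβ8 integrin that activates latent TGF-β, differed by -0.48 (adjusted p = 0.0117) and Itgb3 by 0.50 (adjusted p = 0.00813). The call of Itgb3 was lost without the first spleen HET array (adjusted p = 0.0551), and that of Itgb8 without any of the spleen arrays except the first of KO (adjusted p up to 0.0613). Itgb1, the other partner of α4, differed by 0.33 (adjusted p = 0.0846). It passed as higher in spleen within KO (0.67, adjusted p = 0.0398) and differed by -0.01 within HET (adjusted p = 0.992), while 0 of the 23 subunits passed the genotype by tissue interaction.

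Of 19 homing receptors and genes of selectin ligand synthesis 18 were measured, and 3 passed, 1 higher and 2 lower in spleen (5.43% of all genes passed). Gpr183, the oxysterol receptor that positions lymphocytes in the spleen, read 7.14 to 7.43 in thymus and 7.77 to 8.16 in spleen (0.71, adjusted p = 0.00105). Ccr9, a receptor for the thymic and gut chemokine CCL25, differed by -0.40 (adjusted p = 0.0275), and Madcam1, the ligand of α4β7, by -0.46 (adjusted p = 0.0308). The call of Ccr9 was lost without the second array of thymus HET or KO, the first of spleen HET or either of spleen KO, with adjusted p up to 0.152. That of Madcam1 was lost after quantile normalization and without the second thymus HET array, the first thymus KO array, either spleen HET array or the second of spleen KO, with adjusted p up to 0.144. Ccr7, which guides cells to the thymic medulla and to lymph nodes, differed by -0.12 (-0.33 to 0.09, adjusted p = 0.517).

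Of 16 genes of integrin activation and migration 15 were measured, and Was, the Wiskott-Aldrich syndrome protein of the actin skeleton, passed as higher in spleen (0.40, adjusted p = 0.0385). This is 1 of 15 genes, beside 5.43% of all genes. Its call was lost after quantile normalization and without the second array of thymus HET or KO or any spleen array, with adjusted p up to 0.163. Fermt3, the kindlin that activates leukocyte integrins, differed by 0.45 (adjusted p = 0.0558), and the kinase Stk4 by 0.36 (adjusted p = 0.0512), and both passed with the pool of mice as a random block. The median of this list was 0.22.

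Lists of maturation genes were set beside the egress genes. Of the immature CD4 single-positive genes, 12 of 13 were measured and 6 passed, all lower in spleen (5.43% of all genes passed in either direction). Myb, a transcription factor of progenitors and thymocytes, read 8.60 to 9.10 in thymus and 7.50 to 8.02 in spleen (-1.15, adjusted p = 5.16e-05). Sox4, a thymocyte transcription factor, read 6.80 to 7.78 in thymus and 5.23 to 6.17 in spleen (-1.43, adjusted p = 0.00159). Cd24a, a surface antigen lost as thymocytes mature, read 4.95 to 6.08 in thymus and stayed under background in spleen, at 3.94 to 4.60 (adjusted p = 0.000948). Of the mature and recirculating genes, 11 of 14 were measured and 4 passed, all higher in spleen. Il6ra, a chain of the IL-6 receptor, read 8.50 to 9.07 in thymus and 9.76 to 9.89 in spleen (1.15, adjusted p = 0.000144). Cd55, a complement regulator, differed by 1.04 (adjusted p = 0.000782). Gimap6, a GTPase of lymphocyte survival, differed by 0.52 (adjusted p = 0.00435) and Il4ra by 0.66 (adjusted p = 0.00533). Il7r, the receptor chain for IL-7, differed by 0.23 (0.04 to 0.42, adjusted p = 0.154). Since the arrays measure sorted populations, a different mix of cells and a different level per cell cannot be told apart. The part of maturity in the values of the egress and homing genes was not tested.

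**Figure D3:**
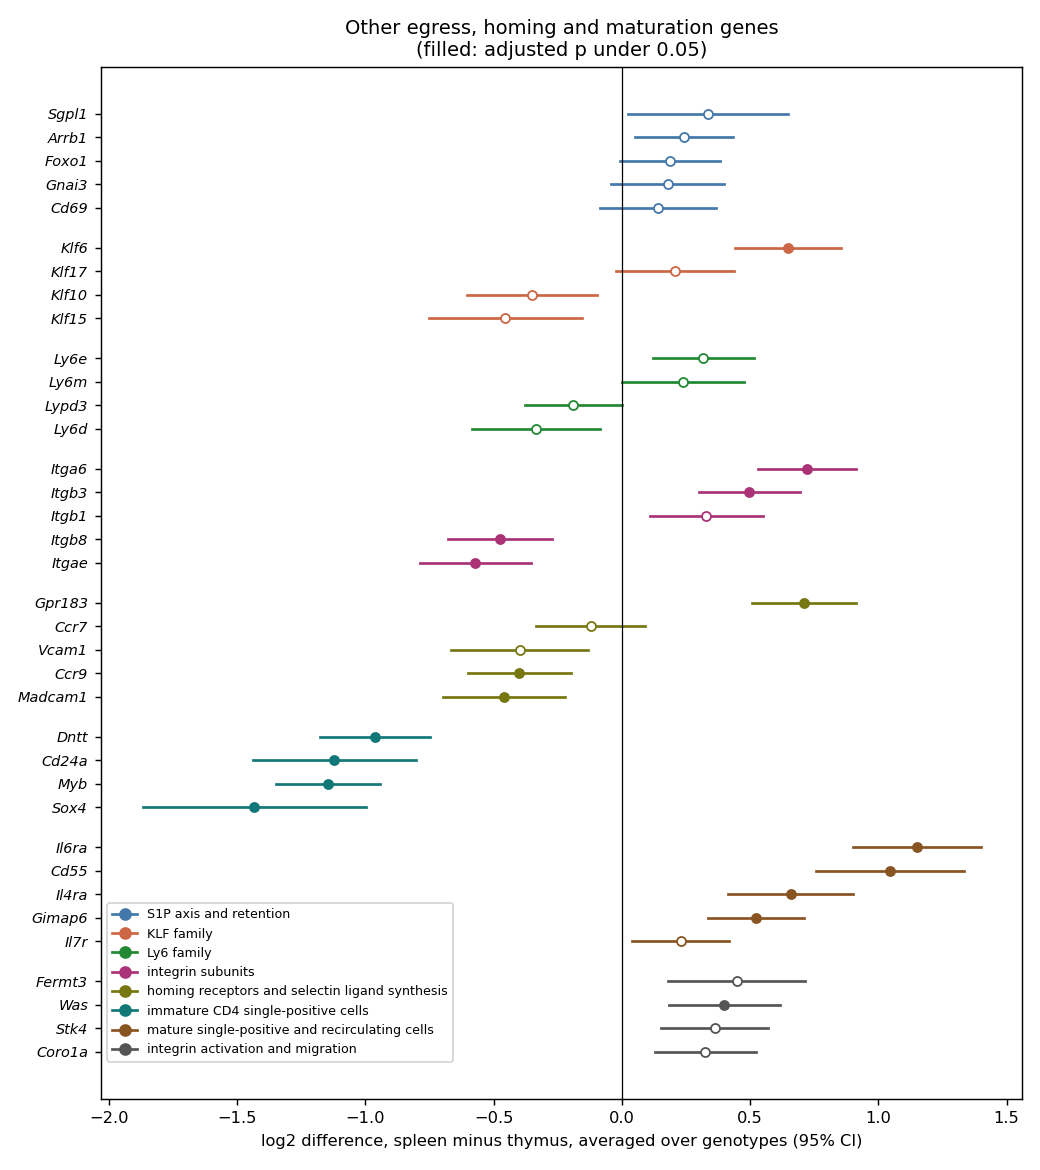
Spleen minus thymus, averaged over genotypes, of the named genes of the 8 lists on the log2 scale. Points are limma estimates, lines 95% confidence intervals, colours lists, and filled points passed at an adjusted p of 0.05. Estimates ran from -1.43 for Sox4 to 1.15 for Il6ra. Spleen was under background for Dntt and Cd24a, thymus KO was also for Dntt, and all arrays were for Klf15. The thymus means of Klf17 were under background in both genotypes.

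The second question was whether loss of miR-181a/b-1 altered the same genes. None of the 8 passed by limma, in spleen or in thymus (0.00451% of all genes passed in each), averaged over tissues (0.0225% passed), or in the genotype by tissue interaction (0% passed). At an unadjusted p under 0.05, 1 of 8 was counted in each of spleen, thymus and their average, where 888, 1225 and 1226 of 22180 genes were counted, and 0 of 8 in the interaction, where 813 genes were. The median KO minus HET of the 8 genes was -0.02 in spleen and -0.02 in thymus. Genes of the 8 lists that passed between genotypes numbered 0 in each of these comparisons.

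The 1 gene counted was Ly6c2. Its readings were higher in KO than in HET in both tissues, with 5.33 and 5.53 against 5.30 and 4.69 in spleen, and 4.11 and 3.91 against 3.66 and 3.55 in thymus, where all readings were under background. Both KO arrays exceeded both HET arrays in spleen and in thymus, which held for 3.03% of all genes. The difference in spleen was 0.43 (0.03 to 0.83, unadjusted p = 0.0367, adjusted p = 1.00). This value rested in part on the second spleen HET array, since it fell to 0.13 under the alternative that left that array out.

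For the other genes the unadjusted intervals give the range of differences that the values leave room for. S1pr1 differed between KO and HET by -0.03 in spleen (-0.29 to 0.24) and 0.01 in thymus (-0.26 to 0.28), and Klf2 by 0.09 (-0.17 to 0.36) and 0.12 (-0.14 to 0.39). S1pr4 differed by -0.02 in spleen (-0.31 to 0.27) and -0.20 in thymus (-0.50 to 0.09). Klf3 differed by -0.16 in spleen (-0.46 to 0.15) and -0.11 in thymus (-0.42 to 0.19). Itga4 differed by 0.03 (-0.23 to 0.30) and -0.05 (-0.31 to 0.22), and Itgb7 by -0.03 (-0.30 to 0.25) and -0.20 (-0.47 to 0.08). With 2 arrays a group, changes beyond some of these limits could also miss the adjusted threshold, as Ly6c2 did in spleen at 0.43.

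**Figure D4:**
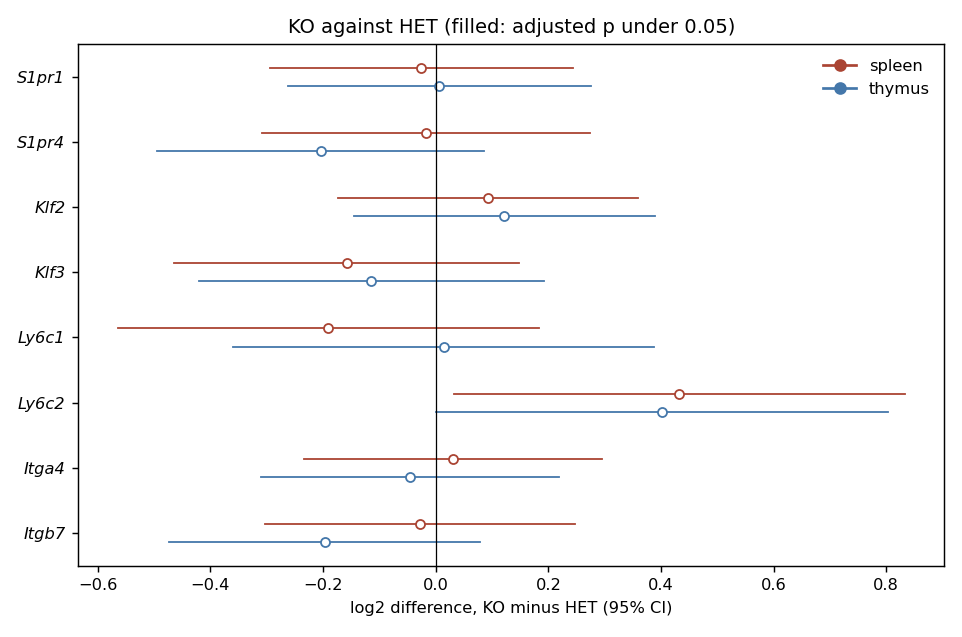
KO minus HET of the 8 genes on the log2 scale, in spleen and in thymus. Points are limma estimates, lines 95% confidence intervals, and open points did not pass at an adjusted p of 0.05. Only the intervals of Ly6c2 lie above 0, and 0 of 8 genes passed; Ly6c1 was under background in both tissues, and Ly6c2 was in thymus.

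The difference between spleen and thymus was also set against the genotype directly. The interaction (the KO minus HET difference in spleen less that in thymus) ran from -0.21 for Ly6c1 to 0.19 for S1pr4 over the 8 genes, with adjusted p of 1.00 throughout. Its interval was widest for Ly6c2 (-0.54 to 0.60) and ran from -0.41 to 0.35 for S1pr1.

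Because Klf2 and Klf3 bind CACCC elements, their letters were counted in the RefSeq promoter windows of 300 bases, on both strands. Windows were found for 7 of the 9 genes, 9 windows in all, and CACCC was present in 7 of the 9 windows, beside 57.5% of all 32851 windows. Klf3 held 5 matches, a count that 1.02% of all windows reached. Itgb7 and Itga4 held 4 each, reached by 3.10% of all windows. Klf2 and S1pr4 held 1 each, Ly6c1 3 in 1 window and 0 in the other, and Ly6c2 0 and 1. A count of 3 was reached by 9.35% of all windows. A link between these counts and the levels was not tested. GTAAACA, a motif of FOXO factors, was present in 0 of the 9 windows and in 3.65% of all windows. The windows of the 3 genes with the most matches are shown, with CACCC or GGGTG in capitals. They are chr5:64803271-64803570 on the plus strand for Klf3, chr15:102231886-102232185 on the minus strand for Itgb7, and chr2:79255176-79255475 on the plus strand for Itga4 (GRCm38.p6). A match is a run of letters and not evidence of binding.
Klf3: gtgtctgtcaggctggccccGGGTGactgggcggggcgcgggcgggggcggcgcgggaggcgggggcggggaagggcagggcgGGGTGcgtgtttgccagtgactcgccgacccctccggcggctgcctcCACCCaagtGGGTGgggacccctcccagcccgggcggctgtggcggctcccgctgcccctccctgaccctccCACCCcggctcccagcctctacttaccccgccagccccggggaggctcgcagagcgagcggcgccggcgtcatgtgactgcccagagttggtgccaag
Itgb7: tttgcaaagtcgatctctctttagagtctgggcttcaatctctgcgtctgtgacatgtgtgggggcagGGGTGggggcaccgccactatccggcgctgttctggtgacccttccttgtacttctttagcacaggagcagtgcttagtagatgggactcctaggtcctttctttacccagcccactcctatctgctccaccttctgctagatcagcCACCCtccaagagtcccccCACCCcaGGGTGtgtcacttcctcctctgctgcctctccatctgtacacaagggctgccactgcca
Itga4: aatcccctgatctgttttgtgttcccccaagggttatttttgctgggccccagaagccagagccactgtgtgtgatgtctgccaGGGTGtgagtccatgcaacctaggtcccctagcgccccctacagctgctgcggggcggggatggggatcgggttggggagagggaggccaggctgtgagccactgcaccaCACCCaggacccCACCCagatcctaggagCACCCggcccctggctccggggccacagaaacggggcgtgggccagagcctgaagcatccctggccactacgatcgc

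The genes whose pattern over the 8 arrays came closest were found by the root mean square difference of values centred on each gene's mean, among 11307 genes above background for S1pr1 and Itga4 and 11308 for Ly6c2. For S1pr1 they were Ago2, Chd3, Hnrnpu, Setd5 and Bicdl1, with differences of 0.0196 to 0.0274, so they shared its nearly level profile. For Ly6c2 they were Igfbp4, Gbp2b, Chil5, Cyp51 and Slamf7, with differences of 0.223 to 0.290. All 4 thymus readings of Ly6c2 were under background, as was the thymus mean of Chil5 (4.40). The likeness to Ly6c2 thus rests in part on values under background. Igfbp4, a binding protein of insulin-like growth factors, averaged 7.37 in thymus and 8.46 in spleen. For Itga4 they were Suco, Aak1, N4bp2l2, Svil and Pik3c2a, with differences of 0.0323 to 0.0445.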

How the data were processed

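Gene expression of sorted Treg cells was measured on 8 Affymetrix arrays. The authors deposited log2 intensities of 41345 probe sets on each array, and the submitters' processing notes name the package oligo. The summarisation method and version are not given in the sources used here. The values were brought to a like scale before deposit, as the array medians show, and were used as deposited. The study's methods name another array design than the deposited probe set identifiers belong to, and its legends other pool sizes than the labels. Identifiers and labels were followed.

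Probe sets with 1 gene symbol (23521) were kept, those with several (1820) or none listed (16004) were left out, and the one with the highest mean stood for a gene, which gave 22180 genes. All 8 arrays entered 1 limma 3.58.1 fit (R 4.3.3) with 4 group means, 4 residual degrees of freedom, moderated spreads and Benjamini-Hochberg adjustment over all genes at 0.05. Intervals are 95% and unadjusted, and precision is limited by having 8 arrays. On simulated data the fit was tested first. Promoter and miRNA sequences are RefSeq's (GRCm38.p6).

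By the labels, 1 pool of mice of a genotype gave the thymus array and the spleen array with its number, so these numbers pair the arrays across tissues. Their deviations from the group means correlated with r = 0.12 in HET and 0.02 in KO. Across genotypes, equal numbers mark no shared mice. The pools are the replicates.

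Alternatives were quantile normalization, other choices of probe set, a filter on dim genes, array weights, a trended and robust spread, fits of the compared groups alone, replicate blocks, and leaving out each array. Named genes were the 9 genes of the set, up to 4 genes of each list with the smallest p between tissues, and 10 further genes set by name. The genes, lists and rules were chosen with earlier results of these data known.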

Additional observations from a re-analysis of the deposited data

How the results depend on the processing

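Of 946 values of the 8 genes recomputed under the alternatives, over 56 results, 910 kept their side of the threshold, 31 lost it and 5 gained it, and no value that passed a test changed direction. Signs changed in 42 values that passed no test. Of the 8 genes, 3 passed between spleen and thymus in HET, beside 266 of all 22180 genes. Without the genes under the median level 1 passed, beside 401 of 11090. There 6 of the 8 were tested because Ly6c1 and Ly6c2 were left out. In KO 3 passed, beside 381 of all genes, and 1 with only the arrays of the groups compared, beside 274. With 1 array left out, the count in HET was lowest without the second thymus HET array or either spleen HET array. In KO it was lowest without any 1 of the spleen arrays. The number of all genes that passed also fell in each of those fits, which leave a single array in 1 group. Ly6c2 passed between tissues under each alternative that tested it, with adjusted p up to 0.0453. Klf3 in KO missed the threshold after quantile normalization (adjusted p = 0.0557), with array weights (0.0536) and with only the groups compared (0.0990), as did Ly6c1 there (0.0619). Itgb7 in KO passed without the dim genes (0.0338) and with the trended, robust spread (0.0161). With the pool as a fixed replicate block the averaged contrast gave 4 of 8, with the pool as a random block 5, which added Itga4, and with the number as a block 4. Over all genes the averaged contrast gave 1204 without a block, and 1411, 1458 and 1541 with these blocks. The blocks changed no other call of the 8 genes. Of 36 named list genes 17 passed, of which 12 passed under every alternative that tested them, and 9 others passed under at least 1. Where not stated, the cause of a change was not tested. With 2 arrays a group and 4 residual degrees of freedom, small differences and all values under background are limited in precision.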
